A study of Rattus norvegicus with 6 samples.

Results

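The genes described here drive cells through the division cycle, from the D cyclins of early G1 to the motors and kinases of mitosis. They are a list of 40 genes chosen by name. Of these, 37 had a probe set with that gene as its only symbol, and all 37 passed the filter on low means, out of 10546 genes that did so on the whole array. Where a gene had several probe sets the brightest, by the mean over all arrays, stands for it. Rrm2 and Anln were covered only by probe sets that carry a second gene symbol, and Tpx2 had no probe set under its symbol, so these 3 have no values here.

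The tissue was the metrial gland of the rat, the thickened uterine wall behind the placenta, taken on gestation day 13.5. Ambient animals (3 arrays) were kept at 21% oxygen. Hypoxia animals (3 arrays) were kept at 10.5% oxygen from gestation day 6.5 until collection. No strain, genotype or other treatment is given in the sources used here. Nothing in the labels tells whether each array holds a different animal, and the p-values therefore rest on a spread between samples that could be technical.

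In early G1 the D cyclins and their kinases inactivate the retinoblastoma protein and free the E2F factors, which then switch on genes for replication. Cdkn1a and Cdkn1b, better known as p21 and p27, restrain the cyclin-dependent kinases. Genes of mitosis are switched on later, largely through CCAAT boxes and an element called CHR that is read by the DREAM and MuvB complexes. In this tissue natural killer cells, stroma, vessels and trophoblast can all divide, and rodent trophoblast giant cells replicate their DNA without dividing.

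Promoters show the split between S phase and mitosis genes that the comparison below uses. RefSeq promoters on GRCr8, from 250 bases before the start to 50 after it, were matched by symbol for 31 of the 40 genes. The words searched, on both strands, were CCAAT, the CHR word TTTGAA, and the E2F words TTTCCCGC, TTTCGCGC, TTTGCCGC and TTTGGCGC, of which neighbouring E2F matches can overlap. An E2F word was found in 6 of 8 S phase promoters (Mcm2, Mcm3, Mcm5, Mcm6, Mcm7 and Tyms) and in 1 of 17 mitosis promoters (Cdk1), against 2.14% of all 33469 promoters of that length. The CHR word was found in 10 of 17 mitosis promoters and 1 of 8 S phase promoters (Mcm2), against 18.3% of all. CCAAT was found in 12 of 17 and 6 of 8, against 37.5% of all. These matches are letters in a window and not measured sites.

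The 250 bases before the start are printed for 4 genes, with matches in capitals. Mcm5 and Cdk1 had the most matches of the S phase and mitosis lists, and Rrm1 and Kif20a are the members of those lists that passed the threshold in the comparison of oxygen levels. They lie on the plus strand at chr19:13488563-13488812 (Mcm5), chr1:166235654-166235903 (Rrm1), chr20:19265043-19265292 (Cdk1) and chr18:26504172-26504421 (Kif20a), all in GRCr8.
Mcm5: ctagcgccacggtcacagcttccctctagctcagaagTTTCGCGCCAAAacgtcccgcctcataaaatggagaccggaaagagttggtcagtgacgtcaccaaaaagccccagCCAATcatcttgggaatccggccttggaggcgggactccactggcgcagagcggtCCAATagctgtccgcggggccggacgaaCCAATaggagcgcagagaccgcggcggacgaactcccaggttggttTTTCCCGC
Rrm1: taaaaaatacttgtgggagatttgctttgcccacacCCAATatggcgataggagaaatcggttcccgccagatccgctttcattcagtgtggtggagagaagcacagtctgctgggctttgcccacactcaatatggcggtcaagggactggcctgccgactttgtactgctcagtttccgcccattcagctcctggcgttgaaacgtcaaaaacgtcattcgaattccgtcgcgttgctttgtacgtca
Cdk1: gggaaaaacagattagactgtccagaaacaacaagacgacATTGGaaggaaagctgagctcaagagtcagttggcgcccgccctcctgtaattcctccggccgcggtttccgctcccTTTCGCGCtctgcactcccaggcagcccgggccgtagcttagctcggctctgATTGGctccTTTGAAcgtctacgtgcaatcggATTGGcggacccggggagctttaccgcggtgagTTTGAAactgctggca
Kif20a: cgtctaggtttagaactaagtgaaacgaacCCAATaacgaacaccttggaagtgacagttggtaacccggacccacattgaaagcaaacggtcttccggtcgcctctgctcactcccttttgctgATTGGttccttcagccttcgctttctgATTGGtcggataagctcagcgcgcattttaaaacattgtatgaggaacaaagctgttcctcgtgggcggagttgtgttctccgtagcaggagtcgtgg
In Mcm5 the first pair of E2F words overlap, and 3 CCAAT boxes and another E2F word follow. Cdk1 has 3 CCAAT boxes in the reverse direction, 1 E2F word and 2 CHR words. Kif20a has 3 CCAAT boxes and neither of the other elements, and Rrm1 has 1 CCAAT box and no E2F word as spelled here.

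Before the cell cycle genes, the arrays themselves. Over all 18625 probe sets tested, 749 were higher and 367 lower in hypoxia (limma, Benjamini-Hochberg adjusted p under 0.05), a split of 67.1% higher that moved to 55.4% with quantile normalization. Array medians lay between 6.44 and 6.47 (log2). The 3'-to-5' gap of the beta-actin probe sets (log2), which widens with degraded RNA, lay between 0.41 and 0.54 in ambient and at 0.58, 0.77 and 0.66 on hypoxia replicates 1, 2 and 3. The GAPDH gap was small on all arrays. It lay between -0.047 and -0.008 in ambient and at -0.04, 0.057 and -0.005 on hypoxia replicates 1, 2 and 3, with hypoxia replicate 1 inside the ambient range. Limma's array weights were lowest for hypoxia replicate 2 (0.581) and highest for ambient replicate 2 (1.64). Of 11 natural killer cell markers tested 4 were lower and 0 higher, and their summed linear signal ran from 54390 to 61280 in ambient and from 45723 to 48436 in hypoxia. Of 14 trophoblast markers tested 11 were higher, with sums of 4129 to 11139 and 21994 to 28750. Of 12 red cell precursor markers listed 8 were tested and 7 were higher, with sums of 8152 to 10915 and 20245 to 23717. Ahsp, Hbg1 and Hbz had ambient means of 5.61, 5.13 and 5.55, below the filter's cut of 5.74. They passed it through their high hypoxia values, so the count of 7 in 8 is partly set by the filter. Epb42, Klf1 and Gata1, low in both groups, were left out by it. Endothelial markers were higher (4 of 9 called, sums of 6998 to 7367 and 8276 to 8949). T and B cell markers were lower (3 of 6 tested called, sums of 3908 to 4941 and 2587 to 3349), with the B cell genes Cd79b and Ms4a1 left out by the filter. Of 8 epithelial markers Epcam, Cdh1 and Cldn3 were tested (2 of 3 called, sums of 544 to 833 and 241 to 449). All 3 were lower, and lowest on hypoxia replicate 2. The filter left out Krt14, Krt5, Cldn4, Muc1 and Foxa2, which differed by -0.16, -0.18, -0.007, -0.23 and -0.003. Over all genes tested 4.48% were called higher and 2.23% lower. The filter's cut of 5.74 lies above the highest value of the bacterial controls, so no marker that passed could have a mean at their level. Some ambient values did lie below that highest control value. On ambient replicates 1 and 3 Hbe1 read 4.76 and 4.58, Hbg1 4.39 and 4.37, and Hbz 4.95 and 4.63. On ambient replicate 2 these genes read 7.98, 6.62 and 7.07. The part of these marker shifts in the results was not tested, and in whole tissue fewer cells of a type and less RNA per cell cannot be told apart.

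Most cell cycle genes were a little lower in hypoxia, but few differences passed the adjusted threshold. Of the 37 genes 2 rose (Cdkn1a and Rrm1), 1 fell (Kif20a) and 34 did not pass an adjusted p of 0.05. Over all genes tested 6.70% passed, 4.48% higher and 2.23% lower, so the count of calls among these genes is near the background. The direction was less even. In 31 of 37 genes the difference was below 0, against 48.0% of all genes, and the median difference was -0.23 (log2, hypoxia minus ambient) against 0.01 over all genes. At an unadjusted limma p under 0.05, 15 of 37 differed (24.7% of all genes), 13 lower (11.1%) and 2 higher (13.6%). Groups did not overlap for 11 of 37 genes (31.5% of all genes), 9 lower (14.7%) and 2 higher (16.8%). The list was proposed with earlier results of these arrays in view, so these shares are descriptions.

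**Figure D1:**
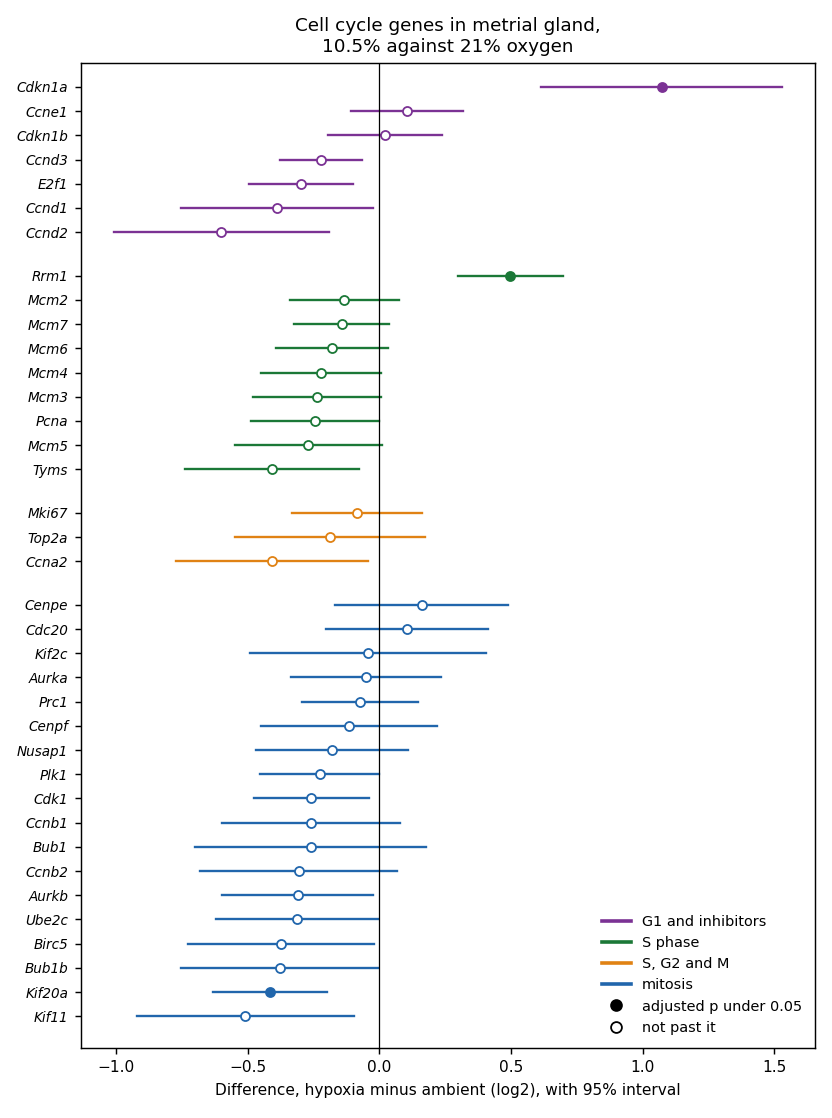
Difference in level, hypoxia minus ambient (log2), for the 37 measured genes with its 95% interval from limma (n = 3 arrays per group), coloured by phase; filled points passed an adjusted p of 0.05. Cdkn1a (1.07) and Rrm1 (0.50) lie to the right, Kif20a (-0.42) and most open points to the left of 0.

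The cyclins that open G1 were lower on the hypoxia arrays, none of them past the threshold. Ccnd2, cyclin D2, stood at 9.66, 9.37 and 9.90 (log2) on ambient replicates 1 to 3 and at 9.16, 8.69 and 9.27 on hypoxia replicates 1 to 3. Every hypoxia array was below every ambient array, with hypoxia replicate 2 lowest. The difference was -0.60 (SE 0.18), a limma adjusted p of 0.0884. Ccnd3, cyclin D3, read 10.01, 9.90 and 10.08 in ambient and 9.81, 9.73 and 9.78 in hypoxia, again without overlap (difference -0.22, SE 0.07, limma adjusted p = 0.0964). Ccnd1, cyclin D1, read 9.30, 8.91 and 8.84 in ambient and 8.89, 8.62 and 8.37 in hypoxia. Its groups overlapped, since hypoxia replicate 1 was above ambient replicate 3, and hypoxia replicate 3 was lowest. Its difference was -0.39 (SE 0.16, limma adjusted p = 0.185), with -0.18 and -0.32 at its other probe sets.

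The step from G1 into S phase gave a mixed picture. E2f1, the transcription factor that turns on replication genes, had an ambient mean of 7.33 ± 0.11 (SD, n = 3 arrays) and lay -0.33, -0.31 and -0.26 from it on hypoxia replicates 1, 2 and 3. The hypoxia values were close together and all below ambient, with a difference of -0.30 (SE 0.09, limma adjusted p = 0.0837). Ccne1, cyclin E1, partner of Cdk2 at S phase entry, was 7.06 ± 0.12 in ambient and 7.16 ± 0.07 in hypoxia (SD, n = 3 arrays each), 0.10 apart (95% interval of the difference, -0.11 to 0.32).

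The p21 gene Cdkn1a, which halts the cycle at G1 and is a target of p53, rose 2.10-fold. It lies at chr20:7150820-7161373 (GRCr8). Its ambient arrays read 8.69, 8.70 and 9.00 and its hypoxia arrays 9.43, 9.90 and 10.29, so the lowest hypoxia array was above the highest ambient array, and hypoxia replicate 3 was highest of all. The difference was 1.07 (SE 0.20, limma adjusted p = 0.0253). A second probe set gave 1.03 (limma adjusted p = 0.0668), without overlap. The brightest probe set missed the threshold when ambient replicate 1 (limma adjusted p = 0.0743), 2 (0.0803) or 3 (0.0614) or hypoxia replicate 2 (0.0723) was left out, while the difference lay between 0.86 and 1.29 over all alternatives. Cdkn1b, the p27 gene and a close relative, did not follow it, at 11.31 ± 0.07 in ambient and 11.33 ± 0.19 in hypoxia (SD, n = 3 arrays each). Its difference was 0.02 with a 95% interval from -0.20 to 0.24, and -0.10 at its second probe set.

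**Figure D2:**
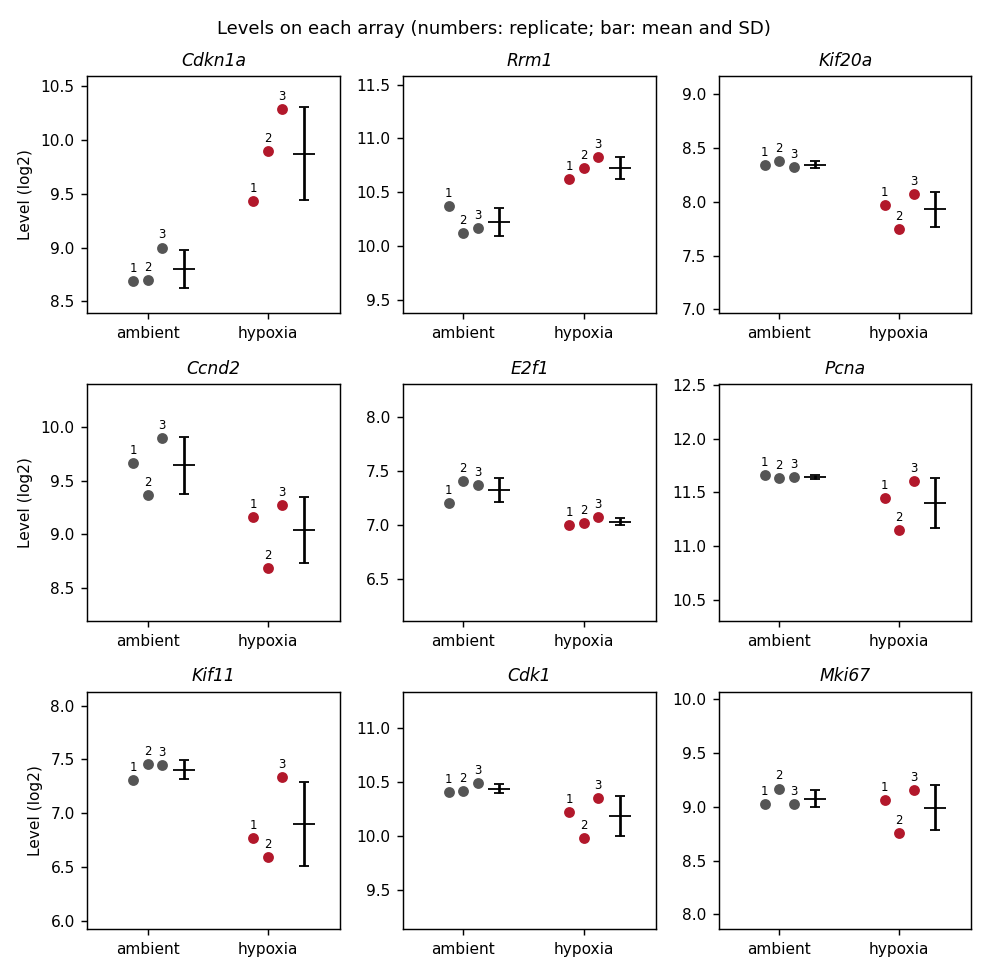
Level (log2) of 9 genes on each array, ambient in grey and hypoxia in red, numbered by replicate, with the mean and SD of each group (n = 3) beside the points; each panel spans the same range of log2 units. Cdkn1a and Rrm1 are higher on all 3 hypoxia arrays, E2f1 and Kif20a lower on all 3. In Kif11 and Mki67, at the probe sets shown, hypoxia replicate 3 reaches the ambient values.

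Genes of S phase were lower except for Rrm1. Of 9 measured, 1 rose (4.48% of all genes), 0 fell (2.23%) by limma and 8 did not pass. Only 1, Tyms, was lower at an unadjusted limma p under 0.05, against 11.1% of all genes, so these counts are near the background. The difference was below 0 for 8 of 9, against 48.0% of all genes, with a median of -0.22. The 6 subunits of the MCM helicase, which unwinds DNA at the fork, differed by -0.13 (Mcm2) to -0.27 (Mcm5), with limma adjusted p-values from 0.219 to 0.411. Mcm5 read 8.06, 8.18 and 8.20 in ambient and 7.71, 7.76 and 8.15 in hypoxia. Hypoxia replicates 1 and 2 were thus below all ambient arrays and hypoxia replicate 3 was among them. Pcna, the clamp that holds DNA polymerase on the template, read 11.66, 11.63 and 11.64 in ambient and 11.45, 11.15 and 11.61 in hypoxia, a difference of -0.24 (SE 0.11, limma adjusted p = 0.211). The groups did not overlap, but hypoxia replicate 3 was close to ambient. Tyms, thymidylate synthase, read 6.28, 6.59 and 6.54 in ambient and 5.85, 5.99 and 6.33 in hypoxia (difference -0.41, SE 0.14, limma adjusted p = 0.136).

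Rrm1, the large subunit of ribonucleotide reductase, which makes the DNA building blocks, was the exception. It lies at chr1:166235904-166260206 (GRCr8). It read 10.37, 10.12 and 10.17 in ambient and 10.62, 10.72 and 10.83 in hypoxia, with no overlap and with hypoxia replicate 3 highest. It rose by 0.50 (SE 0.09, limma adjusted p = 0.0209), which is 1.41-fold. It missed the threshold when ambient replicate 2 (limma adjusted p = 0.0677), ambient replicate 3 (0.0822) or hypoxia replicate 2 (0.0559) was left out, and the difference lay between 0.44 and 0.57 over all alternatives. Of the 8 S phase promoters matched, those of Rrm1, printed above, and Pcna held no E2F word.

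Genes active from S phase into mitosis did not pass. Ccna2, cyclin A2, read 8.21, 8.30 and 8.28 in ambient and 7.76, 7.57 and 8.24 in hypoxia (difference -0.41, SE 0.16, limma adjusted p = 0.168). Here too hypoxia replicate 3 lay inside the ambient range. Mki67, the proliferation antigen Ki-67, read 9.03, 9.17 and 9.03 in ambient and 9.06, 8.76 and 9.16 in hypoxia. Its difference was -0.08 with a 95% interval from -0.33 to 0.16, and only hypoxia replicate 2 was below ambient. Top2a, which untangles DNA, differed by -0.19 (95% interval from -0.55 to 0.17) and was highest of all on hypoxia replicate 3, at 8.61. At its second probe set, which differed by -0.22, that array (8.08) was inside the ambient range.

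Mitosis genes had the lowest median of the 4 groups, -0.26, yet only Kif20a passed. Among the 18 measured mitosis genes 0 rose (4.48% of all genes), 1 fell (2.23%) and 17 did not pass, counts near the background. At an unadjusted limma p under 0.05, 7 were lower (11.1% of all genes). The difference was below 0 for 16 (48.0% of all genes), though these genes share the same 6 arrays. Kif20a, a kinesin of the central spindle needed for cytokinesis, lies at chr18:26504422-26512908 (GRCr8). It read 8.34, 8.38 and 8.32 in ambient and 7.97, 7.75 and 8.07 in hypoxia. All 3 hypoxia arrays were below ambient. It fell by 0.42 (SE 0.09, limma adjusted p = 0.0439), to a level 1.33-fold lower. It missed the threshold with ambient replicate 1 (limma adjusted p = 0.0999), 2 (0.125) or 3 (0.127) or hypoxia replicate 1 (0.102) or 2 (0.0811) left out, with no filter (0.0505) and with no variance trend (0.0516). The difference lay between -0.49 and -0.33 over all alternatives.

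The core mitotic kinase and its cyclins were lower without passing. Cdk1, the kinase that drives entry into mitosis, read 10.41, 10.42 and 10.49 in ambient and 10.22, 9.98 and 10.35 in hypoxia (difference -0.26, SE 0.09, limma adjusted p = 0.149). Its groups did not overlap. Its partners Ccnb1 and Ccnb2, the B cyclins, differed by -0.26 and -0.31 (limma adjusted p of 0.328 and 0.295), and on hypoxia replicate 3 both lay inside the ambient range, at 8.67 and 8.48. The second probe set of Ccnb1 differed by -0.40 (limma adjusted p = 0.138) without overlap, and there hypoxia replicate 3 (7.99) was below all ambient arrays. Plk1, a kinase that matures the spindle poles, differed by -0.23 (SE 0.10, limma adjusted p = 0.212) without overlap. Aurkb, the kinase that corrects chromosome attachment, and its partner Birc5, survivin, differed by -0.31 and -0.37, while Aurka, the spindle pole kinase, differed by -0.05 (95% interval from -0.34 to 0.23).

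Among the spindle motors and the checkpoint kinases, Kif11, the motor that pushes the spindle poles apart, had the lowest mean difference of the 18 mitosis genes, -0.51 (SE 0.18), and did not pass (limma adjusted p = 0.136). It read 7.31, 7.46 and 7.45 in ambient and 6.77, 6.59 and 7.34 in hypoxia, so that 2 hypoxia arrays were far below ambient and the third was inside its range. Its second probe set differed by -0.61 (limma adjusted p = 0.0743) without overlap. There hypoxia replicate 3 (5.99) was well below the ambient arrays (6.45 to 6.74), and hypoxia replicate 1 (6.37) was nearest to them. Kif2c, which removes microtubule ends at the centromere, read 6.57, 6.77 and 6.70 in ambient and 6.67, 6.19 and 7.05 in hypoxia. The lowest and the highest array were both hypoxia arrays, and the difference was -0.04 (95% interval from -0.49 to 0.41). The checkpoint kinases Bub1 and Bub1b differed by -0.26 and -0.38 (limma adjusted p of 0.450 and 0.207). Bub1 was 7.14 on hypoxia replicate 2 and 7.99 on hypoxia replicate 3, below and above all ambient arrays (7.77 to 7.92).

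Of the enzymes that end mitosis, Ube2c, which feeds ubiquitin to the anaphase-promoting complex, differed by -0.31 (SE 0.13, limma adjusted p = 0.204). Cdc20, which activates that complex, differed by 0.11 (95% interval from -0.20 to 0.41), and by -0.03 at its next brightest probe set. The kinetochore proteins Cenpe and Cenpf differed by 0.16 and -0.11, and Nusap1 and Prc1, which bind spindle microtubules, by -0.18 and -0.07. Nusap1's second probe set differed by -0.25 without overlap. None of these passed.

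S phase and mitosis genes were lower to a like extent. The median differences of -0.22 and -0.26 are 0.04 apart. On single arrays of a group the gap between both medians had a SD of 0.07, which is not the error of that difference between groups. Per array, as the median over genes of the level minus the gene's ambient mean, S phase genes stood at -0.20, -0.36 and -0.04 on hypoxia replicates 1, 2 and 3, and mitosis genes at -0.20, -0.48 and 0.01. The ambient arrays lay between -0.04 and 0.04 for S phase genes and between -0.02 and 0.03 for mitosis genes. Both lists thus put the hypoxia arrays in the same order. No p is given for these medians, since the genes were chosen with results in view and share the same 6 arrays.

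**Figure D3:**
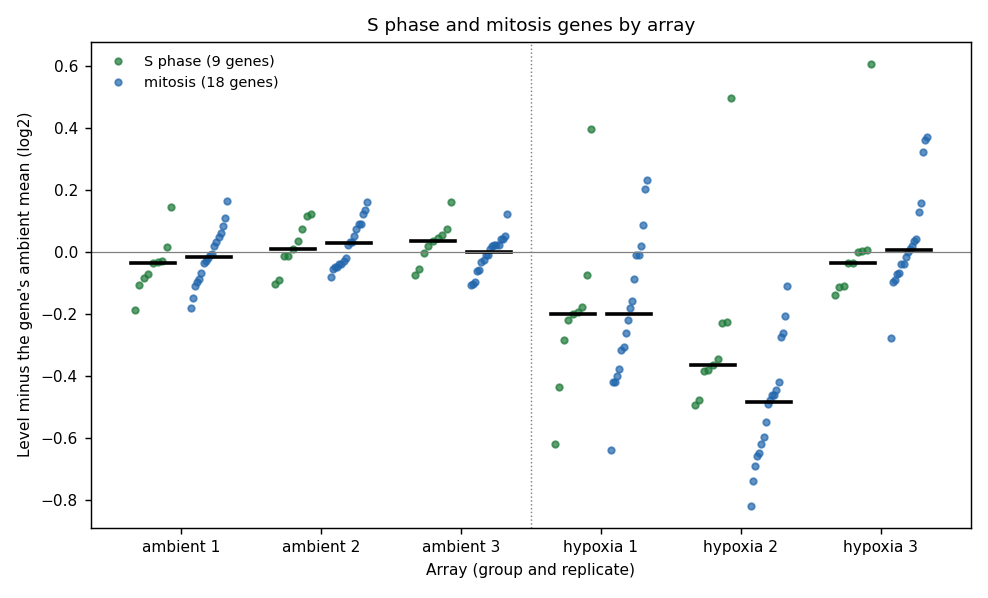
Level of each gene minus its ambient mean (log2) on each of the 6 arrays, for 9 S phase genes (green) and 18 mitosis genes (blue); points are genes and black bars medians. Hypoxia replicate 2 is lowest in both lists (medians -0.36 and -0.48), hypoxia replicate 1 is at -0.20 in both, and hypoxia replicate 3 is at the ambient level; the green point far above the others in hypoxia is Rrm1.

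The hypoxia arrays did not move together in these genes. Hypoxia replicate 2 was the lowest of the 6 arrays for 28 of the 37 genes, and for 17 of the 18 mitosis genes, against 20.4% of all genes. Hypoxia replicate 2 was below every ambient array for 32 of 37 genes (32.2% of all genes), hypoxia replicate 1 for 24 (31.9%) and hypoxia replicate 3 for 11 (30.2%). Hypoxia replicate 3 was inside the ambient range for 17 of 37, against 38.3% of all genes. It was above that range for 9 of 37, against 3323 of all 10546 genes. For every one of the 18 mitosis genes the SD was larger in hypoxia than in ambient, with medians of 0.28 and 0.09, while over all genes 54.8% had a larger SD in hypoxia and the medians were 0.10 and 0.09. Natural killer cell markers had medians of -0.27, -0.32 and -0.24 on hypoxia replicates 1, 2 and 3. These span less than their ambient medians, which lay between -0.05 and 0.09. Trophoblast markers had 1.22, 1.55 and 1.55, macrophage markers -0.08, -0.25 and -0.22, and decidual stroma markers 0.13, 0.18 and 0.13. Smooth muscle markers had 0.23, 0.25 and -0.30 on these arrays, and 0.25, -0.05 and -0.20 on ambient replicates 1, 2 and 3. The part of tissue content in the spread of the hypoxia arrays was not tested. Hypoxia replicate 2 also had the widest 3'-to-5' gap for beta-actin (0.77) and for GAPDH (0.057), and the part of RNA integrity in its low values was not tested.

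Leaving out 1 array at a time shows how far each array sets the list medians. The counts of calls tell less, since they went to 0 without hypoxia replicate 2, ambient replicate 2 or ambient replicate 3 alike, and each fit has fewer arrays. Without hypoxia replicate 3 the count of lower genes went from 1 to 7 (2.18% of all genes in that fit), and the 2 higher genes were again Cdkn1a and Rrm1 (3.96% of all genes). The 7 were Kif11 (-0.73), Ccna2 (-0.60), Birc5 (-0.54), Kif20a (-0.49), Ube2c (-0.47), Aurkb (-0.45) and Mcm5 (-0.41), with limma adjusted p-values from 0.0176 to 0.0471. At an unadjusted p under 0.05, 24 of 37 differed in that fit, 22 of them lower (25.7% of all genes in either direction). Without hypoxia replicate 2 the counts were 0 lower and 0 higher (0.494% and 2.29% of all genes, with 8 of the 37 and 20.5% of all genes at an unadjusted p under 0.05), and the mitosis median moved from -0.26 to -0.10 and the S phase median to -0.12. Without hypoxia replicate 1 they were 0 lower (0.665% of all genes) and 2 higher (1.80%), with 8 of 37 and 19.5% of all genes at an unadjusted p under 0.05. Without ambient replicate 1 they were 0 lower (0.904% of all genes) and 1 higher, Rrm1 (2.38%), with 11 of 37 and 21.2% of all genes at an unadjusted p under 0.05. Without ambient replicate 2 both counts were 0 (0.494% lower and 1.50% higher of all genes), and so they were without ambient replicate 3 (0.333% and 1.42%), with 7 of 37 at an unadjusted p under 0.05 in each (20.8% and 19.0% of all genes). The mitosis median stayed below 0 in all 6 of these fits, between -0.37 and -0.10, and the S phase median between -0.30 and -0.12.

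**Figure D4:**
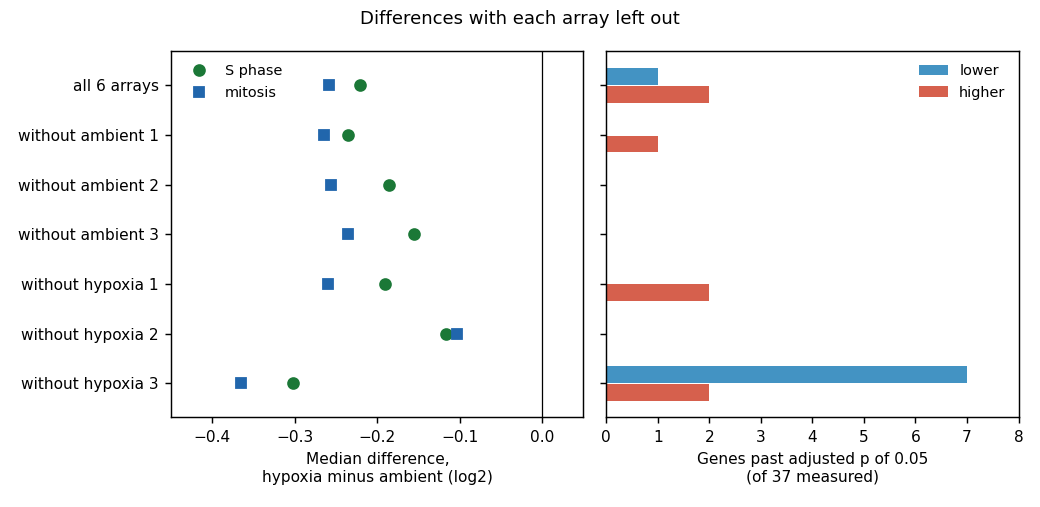
Left, median difference (log2, hypoxia minus ambient) of the S phase (circles) and mitosis genes (squares) with all arrays and with each array left out; right, number of the 37 genes lower (blue) or higher (red) at a limma adjusted p under 0.05. Without hypoxia replicate 2 both medians come closest to 0 (-0.12 and -0.10), and without hypoxia replicate 3 they are lowest (-0.30 and -0.37) and 7 genes are called lower.

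The 7 G1 genes shared no single order of the hypoxia arrays. Ccnd2 was lowest on hypoxia replicate 2 and highest on hypoxia replicate 3, as the S phase and mitosis medians were, and Ccnd1 had its lowest value on hypoxia replicate 3. On hypoxia replicate 3, Ccnd1, Ccnd2, Ccnd3, E2f1 and Cdkn1b, 5 of the 7 G1 genes, were below every ambient array, against 3 of 9 S phase genes (Mcm3, Mcm6 and Pcna) and 3 of 18 mitosis genes (Cdk1, Plk1 and Kif20a). At the second probe set of Cdkn1b that array was inside the ambient range. Cdkn1a was highest on that same array. Of the 36 further G1 regulators described below, 10 were below every ambient array on hypoxia replicate 3, near the 30.2% of all genes. The difference between these groups of genes was not tested.

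Other genes of the same pathways gave the same picture of few calls. Over all genes tested 4.48% rose, 2.23% fell and 48.0% had a difference below 0, and the counts of calls in these lists are near the background. Of 46 further replication genes tested, 1 rose, 0 fell and 45 did not pass, with a median of -0.15 and 40 below 0. The 1 was Rpa1, the large subunit of the single-strand binding protein, which rose by 0.37 (SE 0.08, limma adjusted p = 0.0341) from 9.63, 9.77 and 9.70 to 9.94, 10.11 and 10.16. With any array other than hypoxia replicate 1 left out it missed the threshold (limma adjusted p from 0.0671 to 0.111), and so it did with no variance trend (0.0510), and over all alternatives the difference lay between 0.32 and 0.43. Of 51 further mitosis genes 2 rose, 1 fell and 48 did not pass, with a median of -0.18 and 45 below 0. Hypoxia replicate 2 was the lowest array for 43 of them, against 20.4% of all genes. Cdc25b, a phosphatase that activates Cdk1, rose by 0.74 (SE 0.13) from 7.91, 7.70 and 7.85 to 8.59, 8.82 and 8.29. Zwint, a kinetochore protein, rose by 0.25 (SE 0.05, limma adjusted p = 0.0389), and Stmn1, stathmin, which destabilises microtubules, fell by 0.44 (SE 0.09, limma adjusted p = 0.0336).

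These calls were sensitive to the loss of 1 array, while the differences kept their sign and much of their size. Cdc25b (limma adjusted p = 0.0231) missed the threshold with ambient replicate 1 (0.0514), 2 (0.0755) or 3 (0.0804) or hypoxia replicate 1 (0.0739) left out, and its difference lay between 0.61 and 0.88 over all alternatives. Stmn1 was lost without any 1 array but hypoxia replicate 3 (0.0503 to 0.116) and with no variance trend (0.0516), and over all alternatives the difference lay between -0.51 and -0.34. Zwint was lost without any 1 array (0.0555 to 0.116), and also with quantile normalization (0.0521), no filter (0.0509) and no variance trend (0.0721), and over all alternatives the difference lay between 0.22 and 0.28.

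Among 36 further regulators of G1, inhibitors and genes of the damage response, 1 rose, 1 fell and 34 did not pass, with a median of 0.01. Over all genes 4.48% rose and 2.23% fell, with a median of 0.01 as well. Cdkn1c, the p57 inhibitor and a close relative of p21, rose by 1.54 (SE 0.20, limma adjusted p = 0.00818). It read 8.42, 8.34 and 7.86 in ambient and 9.38, 10.07 and 9.80 in hypoxia, and passed under all 16 alternatives. Trophoblast giant cells are known to make p57, and 11 of 14 trophoblast markers were higher on the same arrays, whose part in this rise was not tested. Cdc25a, a phosphatase that activates Cdk2 at the start of S phase, read 7.75, 7.64 and 7.80 in ambient and 7.27, 7.30 and 7.32 in hypoxia. Like E2f1 it was close to the same level on all 3 hypoxia arrays, and it fell by 0.43 (SE 0.08, limma adjusted p = 0.0237). Its call was lost without any 1 array but hypoxia replicate 3 (0.0511 to 0.0922), and over all alternatives the difference lay between -0.48 and -0.32. Its dimmer probe set, left out by the filter, differed by -0.36.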

How the data were processed

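RNA from rat metrial gland was measured on single-channel Affymetrix rat arrays, 3 ambient and 3 hypoxia, grouped by the labels. Each deposited value is a probe set's level in log2, a scale read from the range (2.98 to 14.9). MAS5 and Affymetrix Expression Console appear in the submitters' processing notes without a role or version, and how signals were summarized and scaled is not given in the sources used here. A method that gives arrays a common distribution hides shifts of most genes at once.

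After 57 control probe sets were left out, the 40% of 31042 with the lowest mean (below 5.74) were removed, which left 18625. Symbols came from the platform annotation, of which 20826 probe sets had 1, 436 several and 9780 none, and 20758 were found in the RefSeq table of GRCr8. The difference, hypoxia minus ambient, was fitted by limma 3.58.1 under R 4.3.3 (lmFit, eBayes with a mean-variance trend, group as the only term), two-sided, with Benjamini-Hochberg adjustment over all 18625 and a threshold of 0.05. Levels and differences are log2, and folds are the differences turned back to linear ratios. Background was judged by 27 bacterial probe sets, highest value 5.00. The fit was tested on simulated data. The number of arrays limits precision. Correlations within groups were 0.989 to 0.993.

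The members and lists were chosen with earlier results of these data known. All members were named, and of each further pathway list up to 4 genes past the threshold by smallest p, or 2 where none passed. Counts and medians describe lists, with no list test. Alternatives were other scalings, offset, filters, variance models, array weights, the replicate block, another probe set rule, other list borders and each array left out.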

Additional observations from a re-analysis of the deposited data

How the results depend on the processing

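With 1 array left out, the count of probe sets called ranged from 270 (without ambient replicate 3) to 1006 (without hypoxia replicate 3), against 1116, and the count of cell cycle genes called from 0 to 9, against 3. Under the other alternatives these counts were within 1.5 times, from 807 to 1444 probe sets and from 2 to 4 genes. The S phase median ranged from -0.30 to -0.12 over all alternatives and the mitosis median from -0.37 to -0.10, each nearest to 0 without hypoxia replicate 2. Their gap ranged from -0.01, without hypoxia replicate 2, to 0.08. With the 60% filter 28 of 37 genes remained measured.

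Nothing in the labels tells whether same-numbered arrays were paired. Their deviations from the group means correlated at 0.012, 0.071 and 0.070, which cannot exclude a pairing. With the replicate block Ccnd1 (adjusted p = 0.0348) and Ccnd2 (0.00944) were also called as lower and Kif20a (0.0571) and Zwint (0.0545) were not, and 1317 probe sets were called.

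Genes with small differences changed sign, none of them called, and the cause was not tested. Cdkn1b was at -0.0040 with quantile normalization, -0.011 with array weights, -0.039 as the mean of its probe sets and from -0.076 (without hypoxia replicate 2) to 0.11 (without hypoxia replicate 3) with 1 array left out, where it was also below 0 without ambient replicate 3. Aurka was at 0.016 with array weights and from -0.12 to 0.060 with 1 array left out, above 0 without ambient replicate 1 or hypoxia replicate 2. Without hypoxia replicate 2 Mki67 was at 0.030, Cenpf at 0.059, Kif2c at 0.18, Prc1 at 0.020 and Cdc20 at 0.26. Without hypoxia replicate 3 they were at -0.17, -0.24, -0.25, -0.12 and -0.0039. Kif2c was also above 0, at 0.0018, without ambient replicate 2.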
